A study of Mus musculus with 24 samples.

Results

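Bone tumors of mice treated with cabozantinib (cabo) were compared at 2 times. The samples were chosen by their labels, as the intratibial tumors given empty vector and cabo. They are 5 tumors of the 24 in the series, 3 collected on day 14 (D14; mice 21, 25 and 27) and 2 collected at the end of the study (EOS; mice 19 and 23). TC2Ras cells are mouse prostate adenocarcinoma cells, made from the TRAMP-C2 line by genetic changes that include activated H-Ras. They were injected, carrying firefly luciferase, into the tibiae of male C57/BL6 mice aged 8 to 10 weeks. All mice described here were implanted in this way and had a plasmid delivered to muscle. In the cabo groups this plasmid was the one that the labels call empty vector. Cabo was given by daily gavage for 2 weeks. The 3 D14 controls and 2 EOS controls received the same vector with the vehicle polyvinylpyrrolidone (PvP). The 3 D14 and 2 EOS IL-27+cabo tumors received an IL-27 plasmid with cabo. A further 3 D14 and 2 EOS intratibial tumors received the IL-27 plasmid with PvP. These IL-27 tumors without cabo entered the fits of all intratibial tumors, and their own changes are not described here. EOS mice were collected at the ethical endpoint, on a day that the labels do not give, and dosing had stopped by then. The age of the tumor, the time since the last dose and the selection of mice that were left to progress therefore cannot be told apart. Each tumor has its own mouse number, and the model is a single transplanted line.

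Cabo is a tyrosine kinase inhibitor that blocks MET, AXL and the vascular endothelial growth factor (VEGF) receptors, among other kinases. VEGF receptors sit on endothelial cells, which line blood and lymphatic vessels. Growing sprouts are led by tip cells, which carry the Notch ligand DLL4, and are then covered by pericytes and a basement membrane of type IV collagen, nidogens and laminins. Tumors in bone also hold fibroblasts, macrophages, lymphocytes, osteoblasts and osteoclasts, and a dissected tibia can bring muscle and tendon with it.

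Each of the 5 libraries held between 69257214 and 71205956 counts on genes and between 22636 and 23683 detected genes, and mitochondrially encoded genes took 2.66% to 3.35% of counts. Pearson's r across genes was 0.976 to 0.977 between D14 tumors, 0.974 between the EOS tumors and 0.960 to 0.970 between the 2 times. Of the 13 genes listed for TC2Ras and prostate epithelium, 9 were tested. None passed an adjusted p under 0.05 in edgeR, and 1 was lower at that threshold in DESeq2. The keratin Krt8 had between 28.8 and 70.9 CPM (counts relative to the library's TMM-scaled total) in the 5 tumors. The prostate gene Pbsn and the basal keratins Krt5 and Krt14 had 0 counts in all of them. Summed over 26 skeletal muscle genes, the level was 1807, 2571 and 2565 CPM in the D14 cabo tumors, 1434 CPM in EOS mouse 19 and 232 CPM in EOS mouse 23, and the control tumors of both times lay between 51.2 and 287 CPM. The muscle level was thus lower in both EOS cabo tumors than in the D14 cabo tumors, but mouse 19 was near the lowest of these. No single muscle gene passed an adjusted p under 0.05 between the times in edgeR.

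Some genes of blood vessels rose between D14 and EOS, among them 12 of 24 pan-endothelial markers, and some genes of inflammation and connective tissue fell, among them 7 of 20 cytokine genes and 7 of 25 fibroblast genes. Of 19144 genes tested with edgeR's quasi-likelihood test, 181 (0.945%) were higher at EOS and 219 (1.14%) were lower, at an adjusted p under 0.05. Below, called means this test and threshold unless another fit or tool is named. At an unadjusted p under 0.05, 1539 were higher and 1825 lower. In each of the 400 called genes the values of the EOS tumors did not overlap those of the D14 tumors. These genes were chosen by p in the same tumors, so the separation is no further support. The share of all tested genes without overlap is not given here. The median log2 fold change over all tested genes was 0.01. The number of calls depended on the fit and on single tumors. With all 20 intratibial tumors in the fit (below, the spread of all 20 tumors), 47 genes were called higher and 6 lower. That fit also had its own scaling and filter, with 21563 genes tested. With the muscle score as a covariate 24 were called higher and 5 lower. Leaving out D14 mouse 21 left 33 genes called higher and 29 lower, leaving out mouse 25 101 and 141, and leaving out mouse 27 67 and 94. Without EOS mouse 19 there were 118 and 321, and without EOS mouse 23 there were 44 in each direction. All these tumors are bulk tissue, so fewer cells of a type and less RNA per cell cannot be told apart in any result below.

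The 3 VEGF receptor genes rose. Flt4, which encodes VEGFR3, the receptor of VEGF-C and VEGF-D, lies on chromosome 11. Its level was 0.804, 0.920 and 1.41 CPM in the D14 tumors and 22.9 and 19.1 CPM at EOS. Both EOS tumors were far above all D14 tumors, with a log2 fold change of 4.35 ± 0.26 (SE, n = 3 and 2, edgeR adjusted p = 0.00181). Flt1 (VEGFR1) measured 25.4, 22.4 and 31.2 CPM at D14 and 94.7 and 73.3 CPM at EOS, a log2 fold change of 1.70 ± 0.16 (adjusted p = 0.00798). The call of Flt1 was lost with the spread of all 20 tumors, with the muscle covariate and without D14 mouse 21, and that of Flt4 was kept in each of these fits. Kdr (VEGFR2), the main signaling receptor of VEGF-A, measured 6.30, 9.97 and 11 CPM at D14 and 29.2 and 19.6 CPM at EOS. Its log2 fold change of 1.45 ± 0.26 had an edgeR adjusted p of 0.0499, just inside the threshold, and the call was lost whichever of the 5 tumors was left out. The co-receptors Nrp1 and Nrp2 and the ligands Vegfa, Vegfb, Vegfc, Vegfd and Pgf were not called by edgeR. DESeq2 called 3 genes of this list of 10 higher and 1 lower. Vegfa itself measured 212, 162 and 209.9 CPM at D14 and 188 and 216 CPM at EOS, so the times overlapped (log2 fold change 0.08 ± 0.13, adjusted p = 0.831).

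Among the 12 tested kinases that cabo is known to inhibit, 4 rose, namely the 3 VEGF receptors and Kit, the receptor of stem cell factor. Kit measured 4.28, 5.31 and 4.05 CPM at D14 and 13.3 and 8.56 CPM at EOS (log2 fold change 1.29 ± 0.23, adjusted p = 0.0469), and its call was also lost whichever tumor was left out. Met and Axl, receptors that tumor cells can carry, did not pass the test. Met measured 86.6, 82.5 and 96.8 CPM at D14 and 80.0 and 82.7 CPM at EOS, and Axl 587, 600.0 and 568 CPM at D14 and 589.7 and 630.0 CPM at EOS. Their log2 fold changes were -0.10 ± 0.09 and 0.08 ± 0.07. Of the 9 tested ligands of these kinases, Angpt2, the angiopoietin released by activated endothelium, rose from 9.22, 9.46 and 10.6 CPM to 20.1 and 21.2 CPM (log2 fold change 1.11 ± 0.11, adjusted p = 0.00959), and the other 8 were not called. The call of Angpt2 was lost with the spread of all 20 tumors, with the muscle covariate, without D14 mouse 21 and without EOS mouse 23.

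Endothelial markers were mostly higher. Of 24 pan-endothelial markers, 12 were called higher and none lower, and their median log2 fold change was 1.41, against 0.01 over all genes tested. The summed level of the 24 genes was 381, 406 and 413 CPM at D14 and 745 and 674 CPM at EOS. The D14 controls had 498 to 708 CPM and the EOS controls 483 and 593 CPM. Cldn5, the tight junction protein of endothelium, measured 1.55, 1.13 and 1.03 CPM at D14 and 16.2 and 21.3 CPM at EOS (log2 fold change 3.94 ± 0.23, adjusted p = 0.00181). Gpihbp1, which holds lipoprotein lipase on the capillary wall, had between 0.641 and 1.24 CPM at D14 and 20.9 and 23 CPM at EOS. Emcn (endomucin) rose from between 2.00 and 3.24 CPM to 25.9 and 28.4 CPM, and the ETS transcription factor gene Erg from between 2.51 and 2.93 CPM to 9.54 and 8.21 CPM. The increases were not equal across the markers. Pecam1 (CD31) rose from 32.5, 48.5 and 33.2 CPM to 83.1 and 69.3 CPM, a log2 fold change of 1.02 ± 0.18 (adjusted p = 0.0494), while Cdh5, Eng, Ptprb and Vwf were not called. With the spread of all 20 tumors 5 of the 24 markers were called higher, and with the muscle covariate 3 were, while the medians were 1.39 and 1.65. The count was 5 without D14 mouse 21, without D14 mouse 27 or without EOS mouse 23, 7 without EOS mouse 19 and 13 without D14 mouse 25. The call of Pecam1 was lost in 4 of the 5 fits that left out a tumor.

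**Figure D1:**
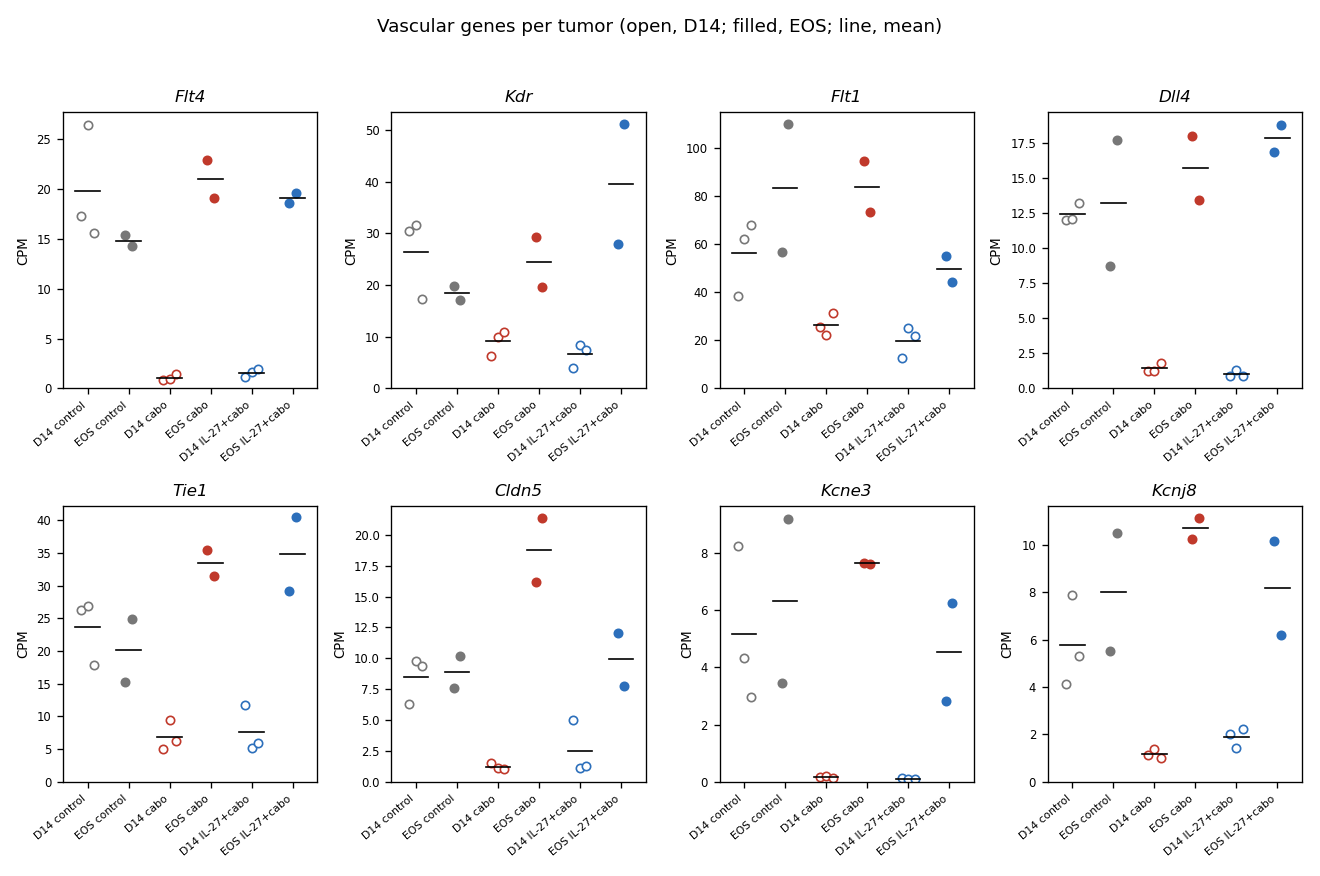
Level of 8 vascular genes in CPM (y axis, from 0) in each tumor of 6 groups (x axis), with open points for D14, filled points for EOS and a line for the group mean. In each panel the 2 filled cabo points lie above the 3 open cabo points, while D14 and EOS controls overlap in all panels except Flt4, where both EOS controls (14.3 and 15.4 CPM) lie just under the lowest D14 control (15.6 CPM).

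Of 23 tip cell and Notch genes tested, 10 were called higher and none lower, and the median log2 change was 0.68. The count was 5 with the spread of all 20 tumors (median 0.66), 2 with the muscle covariate (median 0.85), 2 without D14 mouse 21 and 3 without EOS mouse 23. Dll4 measured 1.26, 1.26 and 1.81 CPM at D14 and 18.0 and 13.4 CPM at EOS, a log2 fold change of 3.47 ± 0.23 (adjusted p = 0.00204). Esm1 (endocan), a tip cell gene, had 0.172, 0.0837 and 0.408 CPM at D14 and 5.31 and 4.99 CPM at EOS, 23.6-fold higher (adjusted p = 0.0150). The Notch target Hey1 rose from between 0.670 and 1.26 CPM to 4.34 and 4.95 CPM, and the Notch-regulated gene Nrarp from between 0.772 and 1.74 CPM to 4.75 and 4.51 CPM. Jag2, another Notch ligand, rose from between 2.05 and 3.46 CPM to 10.9 and 8.03 CPM. The calls of Jag2 and Nrarp were lost in 4 of the 5 fits without a tumor. The receptor Notch1, the ligand Jag1 and the target Hes1 had log2 fold changes of 0.19, -0.04 and -0.03 and were not called. Robo1, a guidance receptor of sprouting vessels and of axons, measured 0.761, 0.669 and 0.962 CPM at D14 and 11.9 and 9.47 CPM at EOS (log2 fold change 3.76 ± 0.23, adjusted p = 0.00181).

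Of 10 lymphatic markers, with a median log2 change of 0.84, Flt4 and Mmrn1 rose and 8 were not called, among them Prox1 and Lyve1, whose log2 fold changes were 1.57 and 0.75. Mmrn1 (multimerin) measured 0.144, 0.112 and 0.262 CPM at D14 and 4.88 and 2.23 CPM at EOS (log2 fold change 4.38 ± 0.50, adjusted p = 0.0133). The call of Mmrn1 was lost with the muscle covariate and without D14 mouse 21. Flt4 is also carried by blood vessels that are sprouting.

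Pericyte genes were split. Of 15 tested mural genes 3 rose, and they include both subunits of the pericyte potassium channel, Kcnj8 and Abcc9. Kcnj8 measured 1.15, 1.37 and 0.991 CPM at D14 and 10.3 and 11.1 CPM at EOS (log2 fold change 3.22 ± 0.20, adjusted p = 0.00181). Abcc9 rose from 6.60, 8.37 and 8.73 CPM to 29.2 and 19.7 CPM. Mcam, which is made by pericytes and endothelium, rose from 12.8, 14.0 and 21.2 CPM to 78.6 and 56.4 CPM. With the spread of all 20 tumors 2 mural genes were called, and with the muscle covariate, without a filter on low counts or without D14 mouse 21 only Kcnj8 was. The contractile genes Acta2, Myh11 and Tagln and the receptor Pdgfrb were not called, with log2 fold changes of 0.02, -1.06, -0.63 and 0.21.

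Of 12 vascular basement membrane genes 3 rose. Nid2 (nidogen 2) had the smallest p of any gene, with 14.1, 14.2 and 13.9 CPM at D14 and 67.4 and 59.4 CPM at EOS (log2 fold change 2.20 ± 0.09, adjusted p = 0.00138). The collagen genes Col4a1 and Col4a2 lie side by side and rose together. Col4a1 measured 572, 554 and 599 CPM at D14 and 1120.0 and 940.0 CPM at EOS, and Col4a2 433, 399.6 and 414 CPM at D14 and 811 and 690.3 CPM at EOS. None of the 3 was called with the spread of all 20 tumors, all 3 were with the muscle covariate, and Nid2 alone was without D14 mouse 21. The laminin genes Lama4 and Lama5 and Hspg2 (perlecan) were not called. Called genes can count in several lists. Flt4 is in the VEGF, kinase and lymphatic lists, and Flt1 and Kdr are in the VEGF and kinase lists. Angpt2 is in the ligand and tip cell lists, and Robo4 in the tip cell and pan-endothelial lists. Nid2 and Mcam each count in a pair of the lists above, as do others below, such as Chil3, Cxcl12 and Col3a1. Mmp15, a membrane-bound metalloproteinase, was the only one of 19 metalloproteinase and inhibitor genes called, and rose from between 2.16 and 3.19 CPM to 13.3 and 9.43 CPM.

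Other genes with small p among those called higher are as follows. Kcne3, a potassium channel subunit, had 0.158, 0.195 and 0.131 CPM at D14 and 7.64 and 7.63 CPM at EOS, 47.5-fold higher (adjusted p = 0.00141). Pcdh12, an endothelial protocadherin, rose from between 0.359 and 0.583 CPM to 12.8 and 9.47 CPM. Ephb1, a receptor of ephrins, rose from between 0.175 and 0.287 CPM to 3.36 and 3.08 CPM. Ednrb, an endothelin receptor, rose from between 4.88 and 7.40 CPM to 46.9 and 43.0 CPM. Mest, an imprinted gene, measured 2.54, 4.14 and 3.56 CPM at D14 and 51.1 and 42.6 CPM at EOS (log2 fold change 3.80 ± 0.21, adjusted p = 0.00181). The linker histone gene Hist1h1c rose from 46.0, 45.6 and 38.9 CPM to 134 and 139.7 CPM, and Trp53i11 from between 7.54 and 11.3 CPM to 73.2 and 66.1 CPM. Hist1h1c has near copies, so its counts are less certain.

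The promoters of 3 vascular genes that rose are shown as examples. They were picked from several such genes and do not stand for the rest. Each run holds 250 bases before and 50 after the start site, from RefSeq on GRCm38.p6, 5′ to 3′ on the gene's strand. Capitals mark matches on either strand to CNGGAAG, a form of the ETS factor core, with 1 match in Flt4 and in Dll4 and 2 in Tie1.
Flt4, chr11:49609429-49609728, plus strand: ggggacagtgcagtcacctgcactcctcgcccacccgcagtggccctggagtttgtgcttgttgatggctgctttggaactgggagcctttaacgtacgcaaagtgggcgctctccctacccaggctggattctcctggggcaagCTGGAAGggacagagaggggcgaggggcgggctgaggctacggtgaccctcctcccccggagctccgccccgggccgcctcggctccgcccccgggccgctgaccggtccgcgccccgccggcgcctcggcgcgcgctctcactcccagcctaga
Dll4, chr2:119325534-119325833, plus strand: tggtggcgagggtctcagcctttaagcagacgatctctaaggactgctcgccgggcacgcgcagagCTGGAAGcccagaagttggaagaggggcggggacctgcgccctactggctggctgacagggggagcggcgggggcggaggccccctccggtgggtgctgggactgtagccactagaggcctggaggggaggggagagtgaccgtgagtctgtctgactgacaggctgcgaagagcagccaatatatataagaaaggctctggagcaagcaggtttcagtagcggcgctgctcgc
Tie1, chr4:118489800-118490099, minus strand: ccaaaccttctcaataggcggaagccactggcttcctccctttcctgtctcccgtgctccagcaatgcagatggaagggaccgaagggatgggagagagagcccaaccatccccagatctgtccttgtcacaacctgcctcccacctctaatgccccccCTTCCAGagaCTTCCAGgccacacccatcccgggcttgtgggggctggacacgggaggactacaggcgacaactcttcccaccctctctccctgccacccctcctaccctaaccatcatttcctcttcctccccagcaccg
A promoter was matched for 114 of the 181 genes called higher, 157 of the 219 called lower and 12648 of the 19144 tested. CNGGAAG was in 37.7% of the promoters of genes called higher, 35.7% of those called lower and 38.9% of all. The share with the ETS form was no larger among the genes that rose than among all promoters, and no test was made of the shares. Tie1, an endothelial receptor of the angiopoietin system, rose from 4.95, 9.39 and 6.18 CPM to 35.5 and 31.4 CPM (log2 fold change 2.31 ± 0.25, adjusted p = 0.0109).

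**Figure D2:**
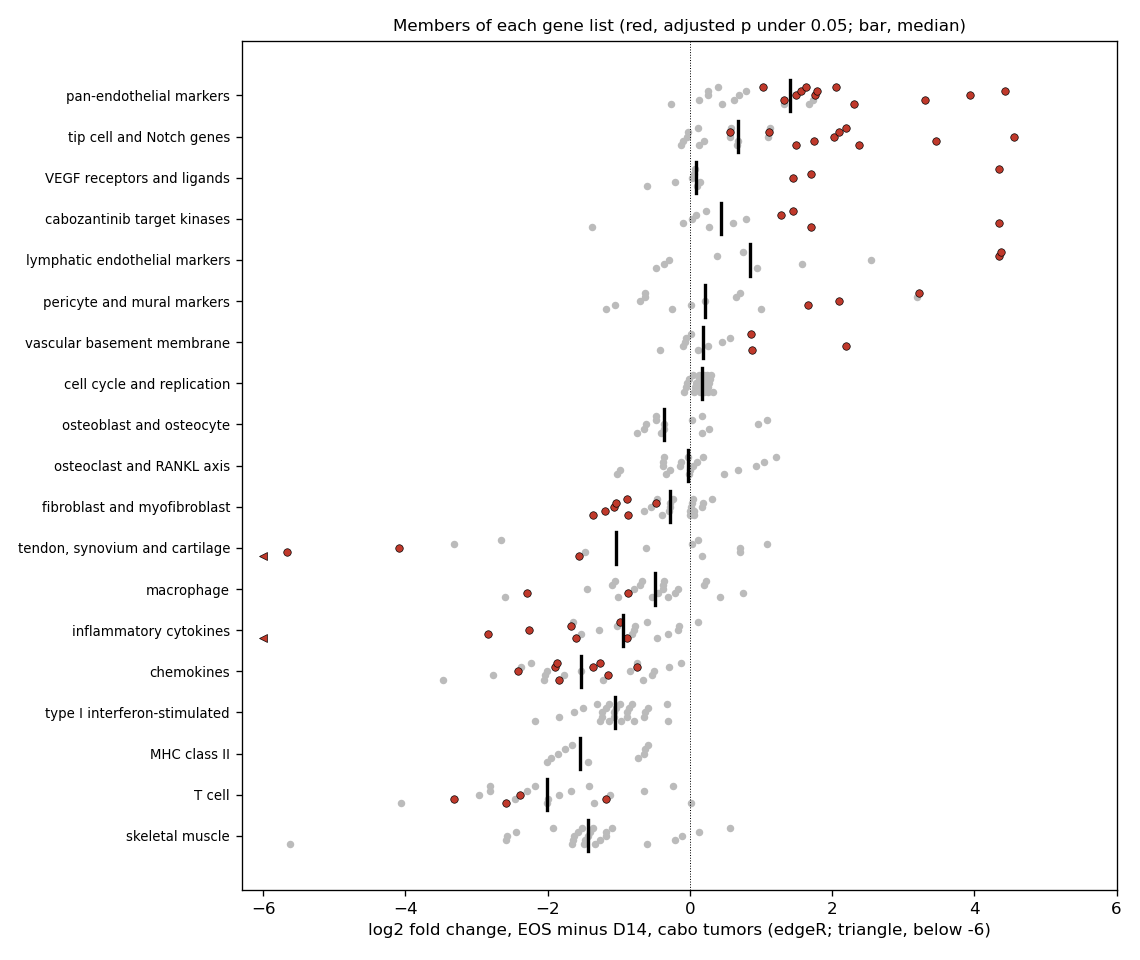
Log2 fold change from D14 to EOS in cabo tumors (x axis) of every tested gene in 19 lists (rows), with red points for genes at an adjusted p under 0.05, grey points for the rest, a bar for the list's median and triangles for values under -6. Called genes lie only to the right in the vascular lists at the top and only to the left in the fibroblast, tendon, macrophage, cytokine, chemokine and T cell lists.

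Control tumors show whether these genes also change without the drug. The control medians between D14 and EOS were -0.16 for the pan-endothelial list and 0.10 for the tip cell and Notch list, on the log2 scale. For the vascular basement membrane list the control median was 0.30, against 0.18 in cabo tumors. Col4a1, Col4a2 and Angpt2 had positive changes of 0.58, 0.72 and 0.79 in controls, against 0.87, 0.88 and 1.11 in cabo tumors. In a fit of all 20 intratibial tumors, the change from D14 to EOS differed between cabo tumors and controls for 17 of 21563 genes (0.0788%). In all 17 the change was more positive in cabo tumors, and in controls some of these genes fell. At an unadjusted p under 0.05 the difference was positive for 442 genes and negative for 445. Of the 181 genes called higher in cabo tumors 15 were among the 17, and of the 219 called lower none was. Flt4 had the smallest p. In controls it measured between 15.6 and 26.4 CPM at D14 and 14.3 and 15.4 CPM at EOS, and the difference of the log2 changes was 4.74 ± 0.43 (adjusted p = 0.000139). The EOS cabo tumors, at 22.9 and 19.1 CPM, lay inside the D14 control range and above the EOS controls.

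Ephb1 (difference 4.77 ± 0.50, adjusted p = 0.000544), Robo1 (3.87 ± 0.45, 0.00144), Ednrb (3.03 ± 0.36, 0.00144) and Emcn (3.60 ± 0.44, 0.00170) came next. Dll4, Mest, Kcne3, Pcdh12, Mmp15 and the semaphorin gene Sema3f, named after its values were seen, also differed from controls. Of the 12 pan-endothelial markers called higher, Emcn alone passed this test. The difference for Kdr was 1.94 ± 0.52 (adjusted p = 0.535), for Cldn5 3.85 ± 0.76 (adjusted p = 0.113) and for Esm1 3.54 ± 0.75 (adjusted p = 0.158). Some genes at EOS lay above every control tumor. Cldn5 had 6.30 to 10.2 CPM over the 5 controls, against 16.2 and 21.3 CPM in the EOS cabo tumors. Ednrb had 21.8 to 26.7 CPM over the controls, against 46.9 and 43.0 CPM. Esm1 stayed under them, with 8.58 to 26.7 CPM in controls against 5.31 and 4.99 CPM. No test compared EOS cabo with control tumors here.

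**Figure D3:**
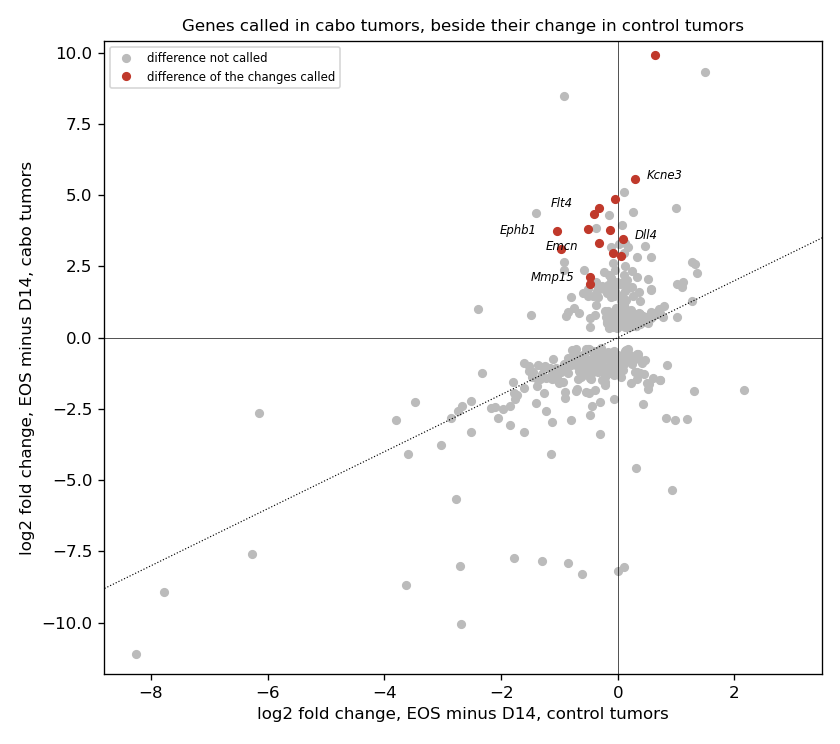
Log2 fold change from D14 to EOS in cabo tumors (y axis) against that in control tumors (x axis) for the 400 genes called in cabo tumors, with a dotted line of equal change and red points for the 15 genes whose changes differed (adjusted p under 0.05). The red points lie from 1.90 (Rasgrp3) to 9.90 (4930502E18Rik) on the y axis and from -1.05 (Ephb1) to 0.64 (4930502E18Rik) on the x axis, and fitted values of genes without counts at 1 of the times, such as Tnmd and Csf2, are no bounds.

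IL-27+cabo tumors, from other mice, received the same drug, and share no tumor with the cabo groups. Of the 181 genes called higher in cabo tumors, 152 (84.0%) also had a positive change there, against 47.4% of 18562 genes, and their median log2 change was 0.77. In controls 105 of the 181 (58.0%) were higher at EOS, with a median of 0.09, against 49.3% of 18490 genes. Of the genes called lower, 188 of 215 (87.4%) were also lower in IL-27+cabo tumors, and 170 of 217 (78.3%) in controls, against 52.6% and 50.7% of all genes. The share of the genes called higher that had a positive change was thus larger in IL-27+cabo tumors than in controls, while most genes called lower were lower in both. Genes are not independent, so these shares carry no test. Within the 5 IL-27+cabo tumors edgeR called no gene in either direction (0% of 19365), with 202 genes higher and 540 lower at an unadjusted p under 0.05. DESeq2, an alternative chosen after the data were seen, called 72 genes higher (0.25%) and 262 lower (0.911%), and 45 of the 181 and 19 of the 219 were among them. Within the controls edgeR called 0 genes higher (0%) and 20 lower (0.104%), of which 3 were among those that fell in cabo tumors. At an unadjusted p under 0.05 there were 1138 and 1393. DESeq2 called 256 (0.894%) and 567 (1.98%) in controls, of which 2 and 45 were shared with the cabo calls.

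Flt4 measured 1.10 to 1.97 CPM at D14 and 18.6 and 19.6 CPM at EOS in the IL-27+cabo tumors, Dll4 0.873 to 1.29 CPM and then 16.8 and 18.8 CPM, and Kcne3 0.0948 to 0.131 CPM and then 2.84 and 6.26 CPM. The 2 times did not overlap for any of these genes. For Hist1h1c the times overlapped, with 98.8 CPM in mouse 20, 45.8 and 46.6 CPM in the other D14 tumors and 48.6 and 51.9 CPM at EOS. The library of mouse 20 stood apart, with 26.6% of counts in its top 100 genes, against 18.3% and 19.5% in the other D14 tumors of this group. The change from D14 to EOS in IL-27+cabo tumors differed from that in cabo tumors for 0 of 21563 genes (0%) by edgeR. At an unadjusted p under 0.05 there were 248 genes with a more positive and 577 with a more negative change in IL-27+cabo tumors, and DESeq2 called 1.

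Some inflammatory cytokine genes fell. Of 20 tested, 7 were called lower and none higher. Their median change was -0.94 on the log2 scale (control median 0.05). None was called with the spread of all 20 tumors (median -0.91), 1 with the muscle covariate (median -0.97) and 2 without D14 mouse 21. Markers of neutrophils and marrow granules moved with these genes. All 12 tested had a negative change, 9 at an unadjusted p under 0.05, and Chil3 was called. Of the 12, 3 had no counts in either EOS tumor and passed the filter through D14 alone, so their sign was fixed beforehand. Their median was -2.28 (-2.21 with the 3 genes at 0 counts set to their bound), against -0.10 in controls, and it was -4.48 without EOS mouse 23 and -4.56 with the muscle covariate. The summed level of the 17 listed genes was between 24.2 and 30.2 CPM at D14 and 5.94 and 6.16 CPM at EOS, and 5 of the 17 were too low to test. The part of these cells in the cytokine results was not tested. Il1b (interleukin 1 beta) measured 13.5, 17.1 and 17.6 CPM at D14 and 2.17 and 2.26 CPM at EOS, a log2 fold change of -2.83 ± 0.18 (adjusted p = 0.00181). The EOS controls were far apart for this gene, at 0.702 and 19.3 CPM. Il1rn, its natural antagonist, fell from 46.9, 41.3 and 34.5 CPM to 20.5 and 20.2 CPM. Oncostatin M and its receptor fell together. Osm had 3.65, 3.08 and 4.5 CPM at D14 and 0.533 and 1.00 CPM at EOS (log2 fold change -2.26 ± 0.36, adjusted p = 0.0368). Osmr had 79.9, 75.8 and 73.2 CPM at D14 and 21.4 and 25.7 CPM at EOS (-1.67 ± 0.10, adjusted p = 0.00181). Lif, a related cytokine, fell from between 7.25 and 11.8 CPM to 3.18 and 2.99 CPM. Stat3, the transcription factor activated by these cytokines, fell from 239, 231 and 217 CPM to 146 and 138 CPM, and its feedback inhibitor Socs3 from 69.1, 64.8 and 65.2 CPM to 36.4 and 42.9 CPM. Tnfaip3, an inhibitor of NF-kB, fell from between 41.7 and 45.5 CPM to 22.4 and 24.2 CPM. Csf2, which encodes GM-CSF, had 52, 25 and 39 counts at D14 and 0 counts in both EOS tumors, at least 12.9-fold lower against a limit of 3 counts per library. Osm, Lif and Csf2, like Tie1 and Pecam1 above, were named after their values were seen, and the calls of Osm and Csf2 were lost whichever tumor was left out. Those of Lif and Il1rn were lost in 4 of the 5 fits.

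Chemokine genes were lower at EOS. All 25 tested had a negative change and 8 were called, with a median log2 fold change of -1.53, against -0.42 in controls. Ccl5, which draws T cells and monocytes, measured 24.7, 29.4 and 23.1 CPM at D14 and 7.21 and 6.88 CPM at EOS (log2 fold change -1.85 ± 0.14, adjusted p = 0.00374). The monocyte attractants Ccl7 and Ccl2 fell from between 22.1 and 28.1 CPM to 6.16 and 6.77 CPM and from between 60.5 and 79.2 CPM to 31.1 and 32.1 CPM. Ccl6, Ccl22, Cxcl12 and Cxcl10 also fell. Cxcl10, an interferon-inducible chemokine, was more spread, with 35.5, 72.9 and 50.7 CPM at D14 and 17.3 and 11.3 CPM at EOS (log2 fold change -1.86 ± 0.33, adjusted p = 0.0473), and its call was lost whichever tumor was left out. None of the chemokines was called with the spread of all 20 tumors or with the muscle covariate, while DESeq2 called 12, and the medians in the first 2 fits were -1.47 and -1.43. The call of Ccl22 was lost in 4 of the 5 fits without a tumor.

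**Figure D4:**
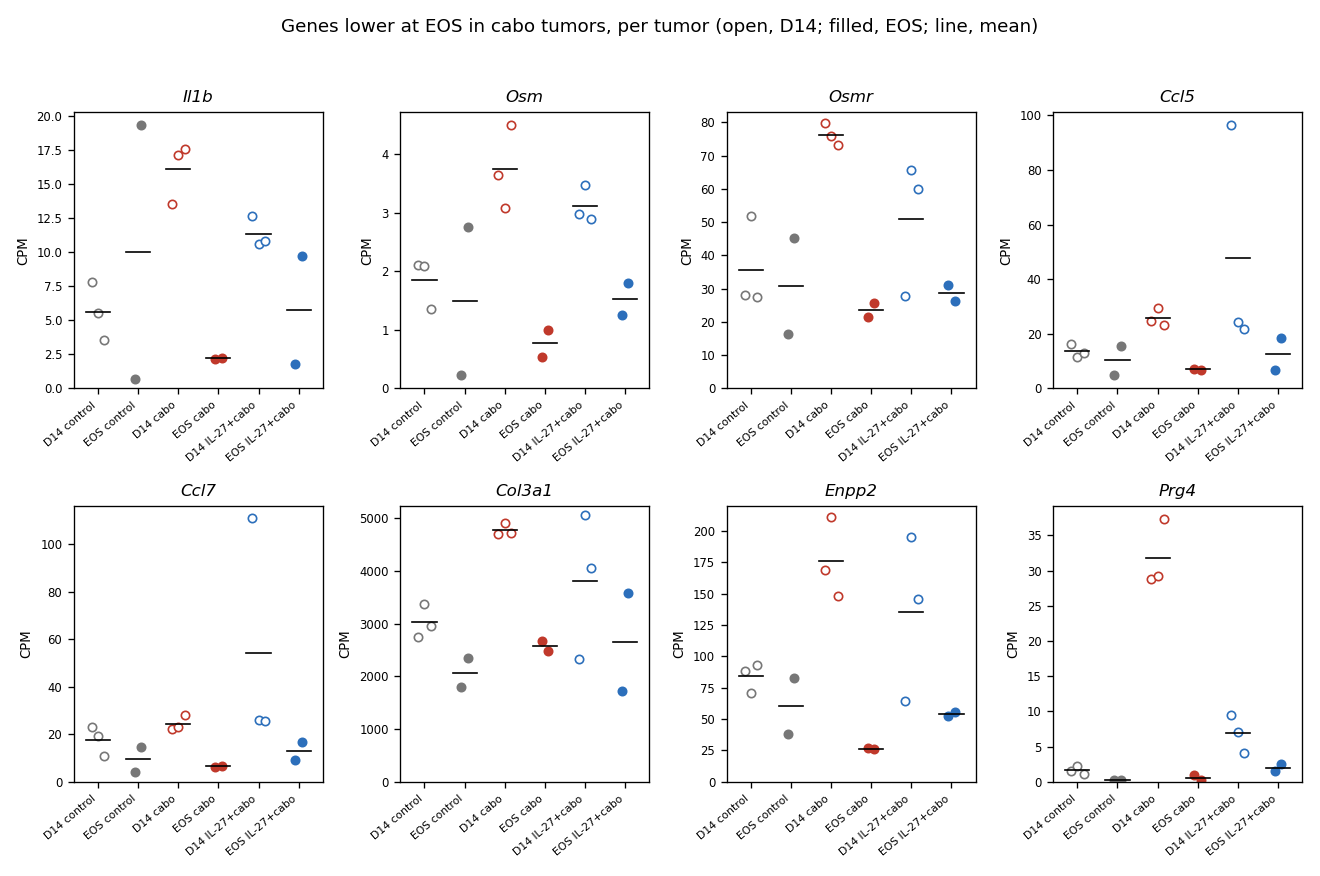
Level of 8 genes that fell in cabo tumors, in CPM (y axis, from 0), in each tumor of 6 groups (x axis), with open points for D14, filled points for EOS and a line for the group mean. The 2 EOS cabo points lie close together and below all D14 cabo points in every panel, while the tumors of some other groups lie far apart, as for Il1b in EOS controls (0.702 and 19.3 CPM).

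T cell markers were mostly lower at EOS. Of 21 tested, 4 were called lower, and 20 had a negative change, with a median of -2.01 (control median -2.36). Cd3e, a chain of the T cell receptor complex, measured 2.07, 2.89 and 3.15 CPM at D14 and 0.355 and 0.172 CPM at EOS (log2 fold change -3.32 ± 0.43, adjusted p = 0.0191). Cd247, Trac and the kinase gene Lck also fell. In controls Cd3e had between 9.85 and 10.8 CPM at D14 and 1.58 and 2.08 CPM at EOS (log2 change -2.51), and no T cell gene differed between cabo and control in its change. Cd274, which encodes the checkpoint ligand PD-L1, fell from 27.4, 34.6 and 24.9 CPM to 15.7 and 13 CPM (edgeR adjusted p = 0.0445). The calls of Lck, Cd274 and, below, Hdc and Tnmd were lost whichever tumor was left out, and those of Trac and, below, Cilp in 4 of the 5 fits. Of 22 macrophage markers, the mannose receptor gene Mrc1 fell from 182, 159 and 156 CPM to 92.6 and 84.9 CPM and Chil3 from between 7.28 and 10.5 CPM to 1.58 and 2.16 CPM, and 20 were not called. Of 7 mast cell markers, whose median change was 1.29, 5 had a positive change, and Kit rose. Hdc, which makes histamine, fell from between 2.18 and 2.92 CPM to 0.738 and 0.973 CPM. Il4ra, the interleukin 4 receptor, fell from 101, 90.4 and 95 CPM to 47.7 and 44.2 CPM. DESeq2 called 16 of 21 T cell and 8 of 22 macrophage markers lower. In the fit with the spread of all 20 tumors and in that with the muscle covariate no T cell or macrophage marker was called. The T cell medians there were -2.04 and -1.22, and the macrophage medians -0.51 and -0.43, against -0.49 with 5 tumors. No T cell marker was called without D14 mouse 21, without D14 mouse 27 or without EOS mouse 23, 2 were without D14 mouse 25 and 9 without EOS mouse 19.

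Interferon-stimulated and antigen presentation genes were lower without passing the edgeR test. DESeq2 called 10 of 26 type I interferon-stimulated, 5 of 14 MHC class I processing and 1 of 10 MHC class II genes lower. All 26 type I interferon-stimulated genes had a negative change and 21 had an unadjusted p under 0.05 in edgeR, which called none. Their median was -1.06, and the control median was -1.34. The median was -0.29 with the muscle covariate, -0.61 without EOS mouse 23 and -1.67, with 5 genes called lower, without EOS mouse 19. Mx1 had 6.69, 12.7 and 11.2 CPM at D14 and 4.41 and 2.07 CPM at EOS. The MHC class II genes had a median of -1.55 (-1.32 in controls), which was -0.73 with the muscle covariate and -0.99 without D14 mouse 25. H2-Aa had 34.5, 118 and 29.2 CPM at D14 and 19.6 and 9.93 CPM at EOS, so that D14 mouse 25 stood far above the other D14 tumors.

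Some connective tissue genes fell. Of 25 fibroblast and myofibroblast genes 7 were called lower and none higher, with a median of -0.28 (-0.36 in controls), and of 21 collagen genes 3 were called lower, with a median of -0.47 (-0.19 in controls). Positive changes were seen in 10 and 7 members, respectively. None of either list was called with the spread of all 20 tumors or with the muscle covariate, and with the covariate the medians were -0.06 and -0.18. Without D14 mouse 21, 1 fibroblast gene and 0 collagen genes were called. Col3a1, a major fibrillar collagen, measured 4704, 4916 and 4721 CPM at D14 and 2671 and 2488 CPM at EOS (log2 fold change -0.87 ± 0.08, adjusted p = 0.00798). Lox, which cross-links collagen, fell from 134, 114 and 131 CPM to 59.8 and 49.2 CPM. Postn (periostin) fell from 1397, 1406 and 1544 CPM to 865 and 675 CPM, and Col5a2 from 709.5, 677 and 785 CPM to 472 and 452 CPM. The called fibrillar collagen genes thus fell in the tumors in which the type IV collagen genes rose.

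Some tendon and synovial genes fell steeply. Of 14 tested 4 fell and 6 had a positive change, 2 of them at an unadjusted p under 0.05. The list median was -1.04 (-0.31 in controls), and it was -0.04 with the muscle covariate, -2.29 without EOS mouse 19 and -0.61 without EOS mouse 23. Prg4 (lubricin), which coats joint surfaces, measured 28.8, 29.3 and 37.3 CPM at D14 and 0.929 and 0.300 CPM at EOS, 50.5-fold lower (adjusted p = 0.00385). Fmod (fibromodulin) fell from 20.9, 29.1 and 20.5 CPM to 1.82 and 0.887 CPM, and Cilp from between 71.1 and 93.8 CPM to 35.3 and 19.4 CPM. Tnmd (tenomodulin), a tendon marker, had 31, 51 and 27 counts at D14 and 0 in both EOS tumors, at least 12-fold lower against 3 counts per library. D14 cabo tumors stood above D14 controls in these genes. The D14 controls had 1.14 to 2.30 CPM of Prg4, 0.794 to 1.90 CPM of Fmod and no counts of Tnmd. From D14 to EOS the log2 changes in controls were -2.78 for Prg4, -3.59 for Fmod and -1.80 for Cilp. No gene of this list differed between cabo and control in its change. Muscle genes were not called by edgeR, and DESeq2 called 4 of 26 lower. Myh1, a fast fiber myosin, had 198, 357 and 239 CPM at D14 and 77.0 and 10.9 CPM at EOS, and Acta1, the muscle actin, 336, 459 and 401 CPM and then 216 and 35.7 CPM. Of 25 tested muscle genes 23 had a negative change, with a median of -1.43 (-2.62 in controls), and 5 had an unadjusted p under 0.05. Without EOS mouse 19, whose muscle level was nearer that at D14, 17 were called lower and the median was -3.74, and without EOS mouse 23 it was -0.61. The part of adjacent tissue in the decreases was not tested beyond the covariate fit, in which Prg4, Fmod and Osmr kept an adjusted p under 0.05 and Il1b, Enpp2 and Col3a1 did not. In that fit the log2 fold change of Prg4 was -4.66, the log2 fold change of Fmod -3.32 and the log2 fold change of Osmr -1.88. The log2 fold change of Il1b was -2.87, the log2 fold change of Enpp2 -2.64 and the log2 fold change of Col3a1 -0.78.

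**Figure D5:**
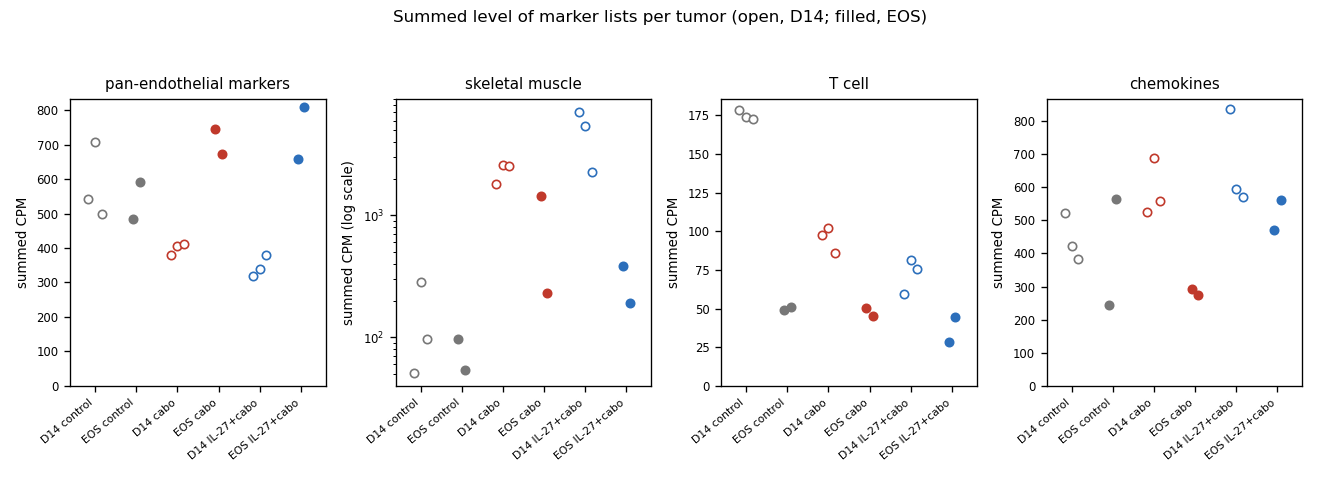
Summed level in CPM of 4 marker lists (y axes, from 0 except for skeletal muscle, which is on a log scale) in each tumor of 6 groups (x axis), with open points for D14 and filled points for EOS. Both EOS cabo tumors lie above the D14 cabo tumors in the pan-endothelial list and below them in the others, and EOS mouse 19 (1434 CPM) is close to the D14 cabo range in muscle while EOS mouse 23 (232 CPM) is not.

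Enpp2, which encodes autotaxin, the enzyme that makes lysophosphatidic acid, had the smallest p of all genes called lower. It measured 169, 211 and 148 CPM at D14 and 26.8 and 25.9 CPM at EOS, 6.57-fold lower (adjusted p = 0.00181). Controls had 71.1 to 93.5 CPM at D14 and 38.1 and 82.8 CPM at EOS, so the EOS cabo tumors lay under every control. Penk (proenkephalin) fell from 115, 128 and 105 CPM to 46.4 and 47.4 CPM, and Tmem132b from between 28.4 and 37.2 CPM to 7.06 and 6.91 CPM.

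Blood genes moved apart from one another. Of 12 tested 8 were not called, 7 had a positive and 5 a negative change, and the median was 0.11 (0.64 in controls). The hemoglobin genes Hbb-bs, Hba-a1 and Hba-a2 were called higher, and their log2 changes in controls were 1.36, 1.10 and 1.12. Sptb, the erythrocyte spectrin that muscle also makes, was called lower. Hbb-bs measured 5.69, 9.53 and 4.85 CPM at D14 and 32.7 and 30.5 CPM at EOS (log2 fold change 2.26 ± 0.27, adjusted p = 0.0146), still within the control range of 18.8 to 221 CPM. Hba-a1 and Hba-a2 are near-identical copies, so their counts cannot be separated with confidence. Heat shock gene Hspa1a, which has a similar copy, rose from between 27.4 and 33.1 CPM to 52.2 and 66.8 CPM, far under the highest control (383 CPM).

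No gene was called by edgeR in the lists for cell cycle and replication, hypoxia and glycolysis, MAPK output, osteoblasts, osteoclasts, adipocytes or NK cells. DESeq2 called 4 cell cycle genes higher, and 1 MAPK output gene higher and 2 lower. It also called 1 osteoblast, 2 osteoclast and 2 NK cell genes lower, and none in the hypoxia or adipocyte lists. In the cell cycle list 13 of 26 genes were higher at an unadjusted p under 0.05. Mcm6, a subunit of the replicative helicase, measured 257, 264 and 269.9 CPM at D14 and 303 and 324 CPM at EOS (log2 fold change 0.27 ± 0.07, adjusted p = 0.106), and the median of the list was 0.17. Acp5, the tartrate-resistant phosphatase of osteoclasts, had 44.5, 37.2 and 54.0 CPM at D14 and 61.6 and 144 CPM at EOS, so that EOS mouse 23 stood apart from the other 4 tumors. In the hypoxia list, whose genes include many that are induced by low oxygen, 1 gene was higher and 1 lower at an unadjusted p under 0.05, of 22.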

How the data were processed

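RNA from bone tumors was sequenced as stranded poly(A) libraries. The authors deposited whole-number counts for 55401 mouse Ensembl genes. The study's methods name cutadapt, HISAT2 and StringTie, and the submitters' processing notes name FastQC, HISAT2, StringTie, DESeq2 and a human build for these mouse samples. The program that made the counts, its build and its annotation are not given in the sources used here, and 30.4% to 31.7% of the counts from 1 to 20 in the 5 cabo libraries were multiples of 4. Symbols and positions came from GENCODE M21 on GRCm38, which matched 55141 of the genes.

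Counts of the 3 D14 and 2 EOS cabo tumors were tested with edgeR 4.0.16 in R 4.3.3 (TMM scaling, filterByExpr, two-sided quasi-likelihood F test, Benjamini-Hochberg adjusted p under 0.05). Differences between treatments in the change from D14 to EOS were tested in a fit of all 20 intratibial tumors. CPM are scaled over these 20 tumors. The groups came from the labels. The 4 subcutaneous tumors were not used.

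The members, lists and tests were chosen with earlier results of these data known. Genes were named as the 10 protein-coding genes of smallest p higher and lower, the genes of the VEGF, kinase, ligand and tip cell lists, up to 4 genes with the smallest p of each other list, and the 5 with the smallest p in each difference. Tie1, Pecam1, Osm, Lif, Csf2, Sema3f and some uncalled vascular and mural genes fell outside this rule and were named after their values were seen. Alternatives were DESeq2 1.42.0, RLE scaling, no filter on low counts, 1 fit of all 8 groups, a muscle score as covariate, counts divided by 4, removal of GC content and length trends, the study's threshold, and leaving out each tumor. DESeq2 for the control and IL-27+cabo groups was added after seeing the data. Scripts were tested on simulated data.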

Additional observations from a re-analysis of the deposited data

Results flagged for a closer look

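For 17 genes the change from D14 to EOS differed between cabo tumors and controls (edgeR, all 20 intratibial tumors, adjusted p under 0.05). In each the change was more positive in cabo tumors. The log2 changes in controls ran from -1.05 (Ephb1) to 0.64 (4930502E18Rik) over the 15 of these genes also called higher in cabo tumors. Of the others, Gimap6 fell in controls from a mean of 20.3 to 8.30 CPM and Gm13304 from 2.81 to 0.694 CPM. The difference of the log2 changes was 4.74 for Flt4, 4.77 for Ephb1, 3.87 for Robo1, 3.03 for Ednrb, 3.60 for Emcn and 3.35 for Dll4. It was 4.29 for Mest, 5.25 for Kcne3, 4.87 for Pcdh12, 2.77 for Sema3f and 2.56 for Mmp15. Further genes were Rasgrp3 (2.34), an activator of Ras, Klhl4 (4.05), Tmem255a (4.89) and Gimap6 (2.19).

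Gm13304 and 4930502E18Rik had no counts in any D14 cabo tumor, so their fitted differences of 10.06 and 9.25 depend on the prior count and are no bounds. Gm13304, a chemokine gene with near-identical copies, had 40 and 27 counts in the EOS cabo tumors, and 4930502E18Rik had 103 and 136.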

How the results depend on the processing

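No paired analysis was possible because the groups compared carry mouse numbers and share none of them. Against 181 genes higher and 219 lower, DESeq2 called 666 and 984, no filter on low counts 49 and 61, the fit of all 8 groups 47 and 6, and the muscle covariate 24 and 5. An unadjusted p under 0.05 with a log2 fold change of 1.5 or more in size gave 184 and 401. Leaving out 1 tumor gave 33 to 118 higher and 29 to 321 lower, the cause was not tested, and a group then held fewer tumors. Of the genes called by the fit of all 8 groups, 45 and 6 were shared with the main calls, and with the muscle covariate 23 and 5. Against 17 genes differing from control, DESeq2 called 88 and leaving out 1 cabo tumor 6 to 10. Against 0 differing from IL-27+cabo, DESeq2 called 1, and leaving out 1 cabo tumor gave 0 throughout. Of 83 named genes 72 were called and none of these reversed under any alternative run, but 13 kept their call under all alternatives with the 5 tumors in the fit. The call was lost for 53 of the 72 with the muscle covariate and for 50 in the fit of all 8 groups. Vegfa, not called at 0.08, reversed with the muscle covariate (-0.11), and without D14 mouse 25 or EOS mouse 23, with values from -0.041 to 0.17 over the tumors left out. With 3 and 2 tumors an exact permutation test of a single gene cannot give a p under 0.1, so no such test was used.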

Other observations

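A pair of gene groups not described above was listed after the values had been seen, so the counts are descriptions only. Of 19 imprinted genes tested 4 were called higher at EOS, with a median log2 fold change of 0.21. Beside Mest these were Peg3 (3.82, 5.76 and 3.32 CPM at D14, 14.2 and 15.5 CPM at EOS), Grb10, an adaptor of growth factor receptors (2.86, 4.55 and 3.76 CPM, then 16.1 and 11.9 CPM), and Peg10 (27.5, 27.8 and 28.8 CPM, then 44.4 and 48.2 CPM). Igf2, Igf2r and Cdkn1c were not called.

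Of 13 histone genes tested 4 were called higher, with a median of 0.92. They were Hist1h1c, Hist1h1d (1.92, 1.92 and 1.89 CPM at D14, 7.77 and 6.40 CPM at EOS), H1f0 (281, 224 and 215 CPM, then 495 and 399.6 CPM) and Hist1h2bc (70.0, 73.5 and 68.4 CPM, then 134 and 126 CPM). Histone genes have similar copies, and many of their transcripts lack a poly(A) tail, so their counts are less certain.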
